A study of Mus musculus with 9 samples.

Results

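The 37 genes described here encode the core machinery of autophagy and the best-known mitophagy receptors. They were chosen by name as initiation, conjugation and receptor genes of the pathway, with no threshold on measured values. All 37 are among the 17527 gene symbols of the deposited tables, and all 37 passed the filter on low counts, which kept 13711 genes. RNA was sequenced from the anterior capsule of the mouse lens, a basement membrane that carries the lens epithelium. Each of 3 groups has 3 libraries. They are aged mice treated with EGCG (epigallocatechin gallate, the main catechin in green tea), aged control mice and young control mice. The title of the series speaks of EGCG, age-related cataract and a RASSF2/AKT pathway. The sources used here give no strain, age, dose, route or duration. Nor do the labels say whether each library is a separate animal, so p-values reflect no more than the spread among these samples, which may be technical.

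Macroautophagy wraps cytoplasm in a double membrane, the phagophore, which closes into an autophagosome and fuses with a lysosome. A kinase complex around ULK1 starts the process, a lipid kinase complex around Beclin 1 marks the membrane, and ubiquitin-like conjugation reactions attach small proteins of the ATG8 type to it, to which cargo receptors bind. Mitophagy is the same process aimed at mitochondria, and in the lens it is known from the removal of organelles as epithelial cells turn into fibre cells, for which BNIP3L is the best-studied receptor. Transcript levels do not measure the rate of autophagy.

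The libraries held between 13184169 and 16528179 counts, and the count of a member in a library lay between 106 (Atg4d) and 8835 (Sqstm1). Levels are in CPM, in which each library is brought to the same total. A count of 3 was worth 0.183 to 0.232 CPM, depending on the library. Levels below are TMM-scaled CPM, in which a factor per library removes the overall shift between libraries. These factors were 0.981 to 0.989 in aged EGCG, 0.881 to 0.926 in aged control and 1.12 to 1.13 in young control libraries. The choice of scaling therefore matters to every small change. Without the factors, the median change of all tested genes moved by 0.13 on the log2 scale for aged EGCG against aged control and by -0.32 for aged control against young control. FPKM, which divides by gene length and the library total and carries no TMM factor, is used only to compare genes with each other or within 1 library. A gene is called changed at an adjusted p under 0.05 in the quasi-likelihood test of edgeR, with Benjamini-Hochberg adjustment over the 13711 genes, and all adjusted p-values below come from that test unless another is named.

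Markers of the labelled tissue were present, with all 13 lens epithelium markers and all 21 lens fibre markers tested. Markers of the retina were present too and moved strongly between the groups. The 26 listed genes summed to between 11530 and 11750 CPM in aged EGCG, 1572 and 1642 CPM in aged control, and 26270 and 26480 CPM in young control libraries, and none of them was at 0 in any group. Of these 26 genes, 25 were called higher in aged EGCG against aged control, and 26 were called lower in aged control against young control. The 6 red blood cell markers in the tables had the same order at a far lower level, with sums of 20.15 to 25.54 CPM in aged EGCG, 6.334 to 7.975 CPM in aged control and 205.4 to 215.1 CPM in young control libraries, and Slc4a1 was at 0 in aged control. Summed markers of the lens epithelium lay at 25560 to 26280 CPM in aged EGCG, 32520 to 33810 CPM in aged control and 19790 to 20050 CPM in young control libraries. Those of the lens fibre lay at 38090 to 39410 CPM in aged EGCG, 43650 to 45400 CPM in aged control and 39220 to 39730 CPM in young control libraries. Autophagy genes are used by every one of these cell types, and the part of differing tissue makeup in the results below was not tested. In bulk tissue, fewer cells of a type and less RNA per cell cannot be told apart.

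As a group, the 37 genes took more of the transcriptome in both aged groups than in the young one. Their levels summed to between 3517 and 3547 CPM in aged EGCG, 3591 and 3603 CPM in aged control, and 2533 and 2559 CPM in young control libraries. On this TMM scale the difference lay almost wholly in 4 genes, picked after their values were seen. Sqstm1, Bnip3l, Pink1 and Gabarap together averaged 1709 CPM in aged EGCG, 1799 CPM in aged control and 810.9 CPM in young control libraries, which was 48.44%, 50.02% and 31.84% of the sum. The 33 others together lay between 1797 and 1833 CPM in aged EGCG, 1791 and 1807 CPM in aged control, and 1732 and 1739 CPM in young control libraries. Sqstm1 alone made 16.24% of the sum in aged EGCG, 16.29% in aged control and 7.642% in young control libraries. As a share of all counts, with no TMM factor, the 37 genes took 0.346% to 0.351% in aged EGCG, 0.317% to 0.333% in aged control and 0.286% to 0.288% in young control libraries, which puts aged EGCG above aged control. The share of the 4 genes was 0.166% to 0.169% in aged EGCG, 0.16% to 0.165% in aged control and 0.0902% to 0.0921% in young control libraries. That of the 33 others was 0.176% to 0.181% in aged EGCG, 0.158% to 0.167% in aged control and 0.194% to 0.196% in young control libraries, so that on this scale they were lower in both aged groups.

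**Figure D1:**
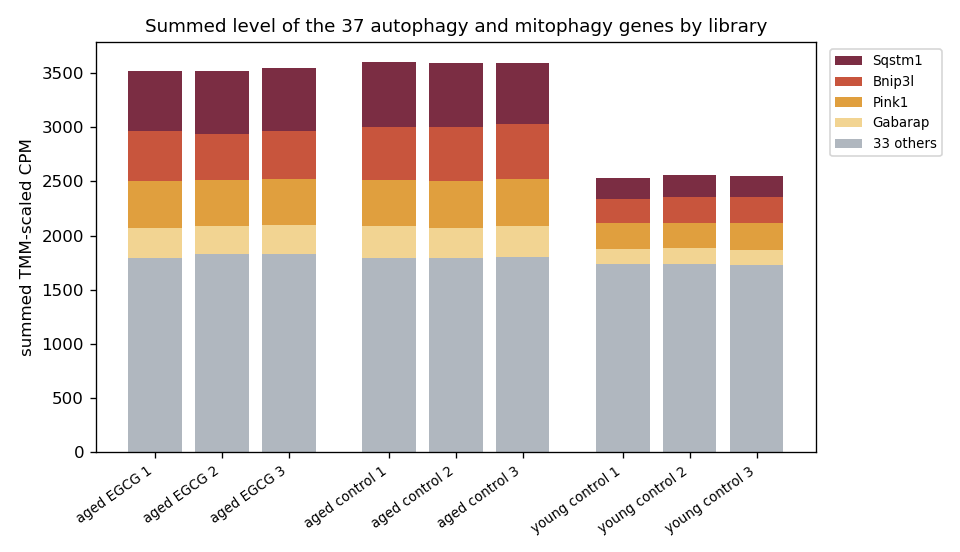
Summed TMM-scaled CPM of the 37 genes in each of the 9 libraries, stacked as Sqstm1, Bnip3l, Pink1, Gabarap and the 33 others. The grey block of 33 genes has nearly the same height in all 9 libraries on this scale (1732 to 1833 CPM), while the 4 coloured blocks are taller in the 6 aged libraries than in the 3 young ones.

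Ranked per length by FPKM, the 4 most abundant members in each group were Gabarap, Gabarapl1, Pink1 and Bnip3l. Gabarap, at 234 FPKM in aged EGCG and 228 FPKM in aged control libraries, was first in both aged groups. Gabarapl1 was first in young control libraries with 171 FPKM, where Gabarap had 143 FPKM. Sqstm1 ranked 5 in both aged groups and 8 in the young one. This rank depends on the length used, which was 5686 bases for Sqstm1, beside 3356 exonic bases in GENCODE vM21. In CPM, Sqstm1 was the highest member in both aged groups, with means of 573 in aged EGCG and 586 in aged control libraries. Pik3c3, the lipid kinase itself, had the lowest FPKM of the 37 in each group. It had 1.35 FPKM in aged EGCG, 1.18 FPKM in aged control and 1.56 FPKM in young control libraries. Its length, 15890 bases, was the greatest of the members, and it was not the lowest in CPM. It averaged 21.7, 20.9 and 22 CPM in the same groups, where Atg4d averaged 12.4, 8.97 and 15.1 CPM.

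The first comparison, aged control against young control, asks what differed with age. The receptor gene Sqstm1 rose most, 3.01-fold, followed by Wipi1 2.24-fold, the mitophagy receptor gene Bnip3l 2.14-fold, Atg10 2.12-fold, Gabarap 2-fold, Becn1 1.92-fold and Pink1 1.79-fold. Optn, another cargo receptor gene, was 1.8-fold lower, Atg4d 1.68-fold, Atg16l1 1.52-fold and Ambra1 1.51-fold lower. In all, 16 members were called higher and 13 lower, and 8 were not called. Of all 13711 genes, 69.2% were called, 35.4% higher and 33.8% lower, so the number of called members is near the background. The median log2 fold change was -0.003 for the members and 0.023 for all tested genes. With a change of at least 1.5-fold, 7 members were called higher and 4 lower, where 21.1% of all genes were called higher and 26% lower by that rule. With scaling to library size only, the calls were 10 higher and 20 lower, beside 2939 and 6442 of all 13711 genes. Without overlap between the libraries of the groups, 15 members lay above and 13 below, beside 36.9% and 35.3% of all genes (72.1% together).

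By role, the counts were as follows, with no test of a difference between roles. They stand beside 35.4% of all genes called higher and 33.8% called lower. All 3 mitophagy genes were called higher, with a median log2 fold change of 0.84, and in the conjugation group 5 were called higher and 2 lower out of 8. In the group for membrane supply, 2 were higher and 3 lower. Nucleation had 1 higher and 3 lower out of 7, initiation 3 higher and 1 lower out of 5, the ATG8-type genes 1 higher and 2 lower out of 5, and the cargo receptors 1 higher and 2 lower out of 4.

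**Figure D2:**
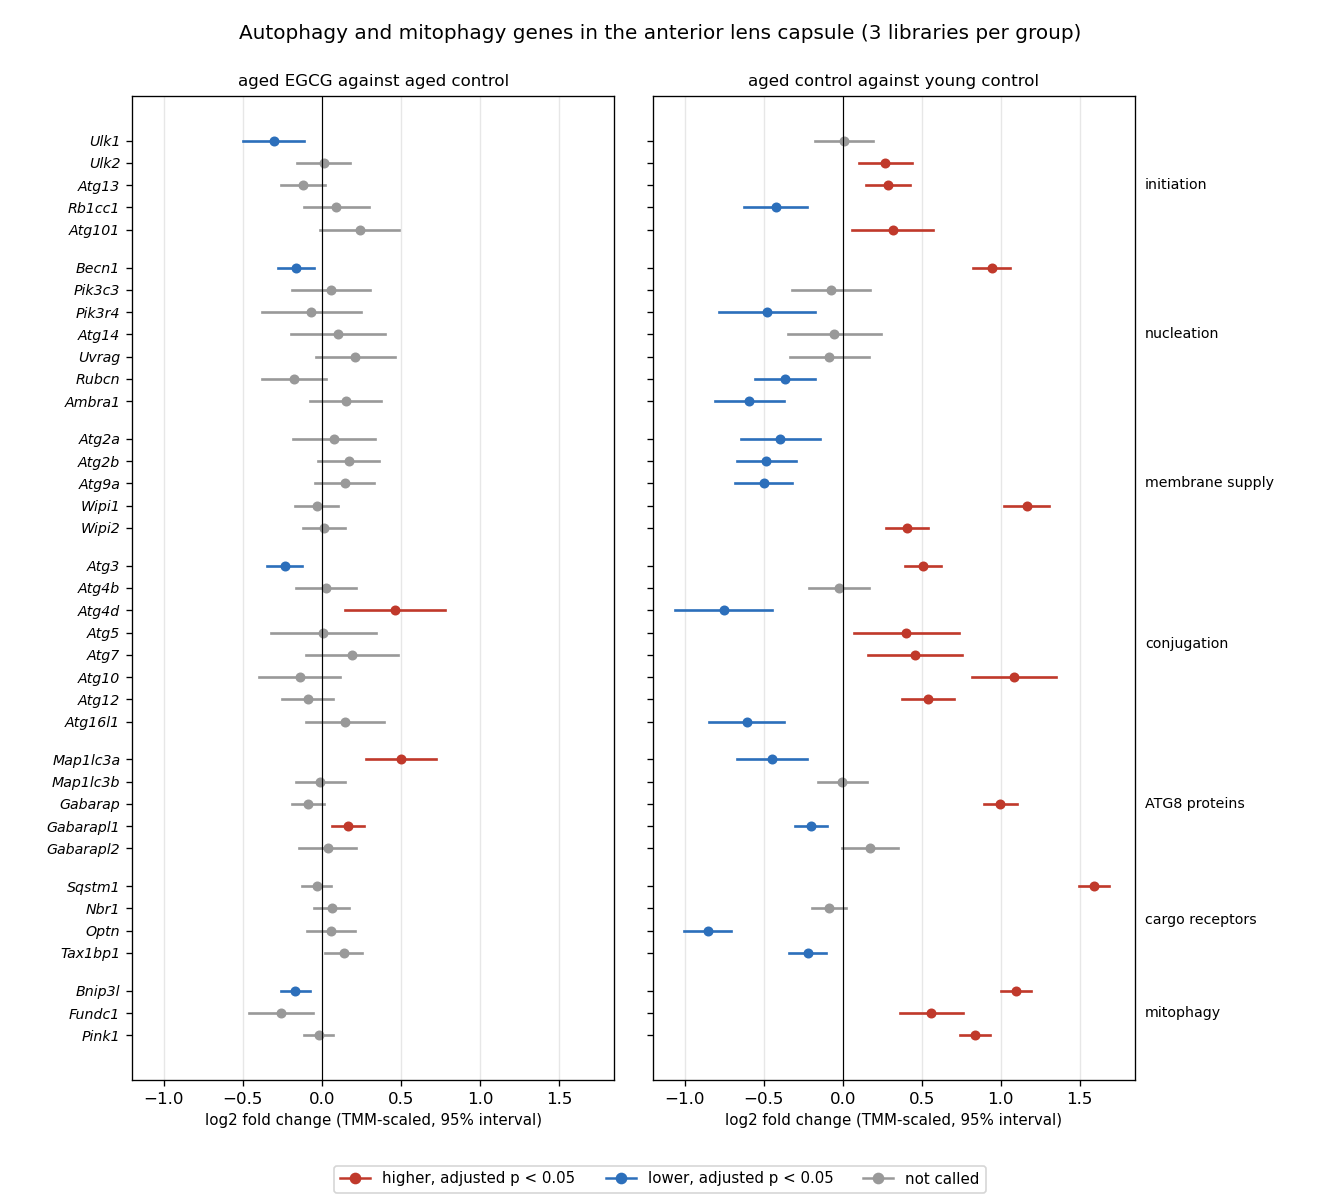
Log2 fold change (x axis, points) with its 95% interval (lines) for the 37 genes, grouped by role down the page, for aged EGCG against aged control on the left and aged control against young control on the right, with the same x axis range. Red and blue mark genes called higher and lower, grey those not called. Changes on the right reach 1.59 for Sqstm1, while on the left all lie between -0.31 for Ulk1 and 0.50 for Map1lc3a.

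Among the initiation genes, Ulk1, which encodes the kinase that starts the process, had 29.6, 32.2 and 33.8 CPM in aged EGCG, 41.1, 36.4 and 40.7 CPM in aged control, and 35.9, 43.6 and 37.9 CPM in young control libraries. The aged control and young control libraries overlapped, and the log2 fold change between them was 0.01 (95% interval -0.18 to 0.20, adjusted p = 0.936), which turned to -0.31 with an adjusted p of 0.00333 when libraries were scaled to their size only. Its paralogue Ulk2 rose 1.21-fold with age. Atg13, an adaptor subunit of the complex, was called higher at a log2 fold change of 0.29, and Atg101, which stabilises ATG13, at 0.32. Under library-size scaling Ulk2, Atg13 and Atg101 stood at -0.05, -0.04 and -0.01 and were no longer called. Rb1cc1, which encodes the scaffold FIP200, fell by 0.42 on the log2 scale. The Atg101 call ended without aged control library 2 (adjusted p = 0.054), young control library 2 (0.133) or young control library 3 (0.0827).

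In the nucleation group, Becn1, which encodes Beclin 1, had 113.2, 116.0 and 121.2 CPM in aged EGCG, 132.3, 129.8 and 130.0 CPM in aged control, and 69.8, 67.7 and 66.6 CPM in young control libraries. Each of the 3 groups was separate from the others. Becn1 was 1.92-fold higher in aged control than in young control (log2 fold change 0.94, SE 0.06, adjusted p = 6.27e-19). Ambra1, whose product binds Beclin 1 and positions it for activation, had 20.6, 21.9 and 25.6 CPM in aged EGCG, 20.1, 21.4 and 19.7 CPM in aged control, and 31.1, 29.4 and 31.7 CPM in young control libraries. All 6 aged libraries lay below all young ones, with a log2 fold change of -0.59 (SE 0.11, adjusted p = 4.99e-06) in aged control against young control. Rubcn, which encodes the inhibitor Rubicon, fell by 0.36 and Pik3r4, the regulatory subunit of the lipid kinase, by 0.48 on the log2 scale. The Pik3r4 call ended without young control library 3 (adjusted p = 0.0875). The kinase gene Pik3c3 and the genes of the alternative adaptor subunits, Atg14 and Uvrag, were not called in any of the 3 comparisons.

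On the TMM scale, the genes for membrane supply split by family. Wipi1 and Wipi2, which encode readers of the lipid that the kinase makes, rose with age, and the lipid scramblase and lipid transfer genes Atg9a, Atg2a and Atg2b fell. Wipi1 had 90.5, 98.4 and 109.9 CPM in aged EGCG, 99.6, 106.8 and 99.0 CPM in aged control, and 47.2, 45.8 and 43.4 CPM in young control libraries. The aged libraries had about the same level as each other and all lay above the young ones (log2 fold change 1.16, SE 0.07, adjusted p = 1.64e-19). Wipi2 rose by 0.41 on the log2 scale. Atg9a fell by 0.50, Atg2b by 0.48 and Atg2a by 0.39 on the log2 scale. The Atg2a call ended without young control library 3 (adjusted p = 0.0662). Wipi1 and Atg9a kept their calls under all 18 other settings described below, and Wipi2, Atg2a and Atg2b did not.

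Conjugation has an ATG12 branch and an ATG8 branch. In the ATG12 branch, ATG7 activates ATG12, ATG10 passes it on to ATG5, and ATG16L1 places the product on the membrane. Atg10 had 20.6, 20.8 and 16.7 CPM in aged EGCG, 22.8, 21.4 and 19.7 CPM in aged control, and 10.6, 9.22 and 10.4 CPM in young control libraries. Its level was 2.12-fold higher in aged control than in young control (log2 fold change 1.08, SE 0.13, adjusted p = 8.86e-10), with no overlap. Atg16l1 went the other way, with 17.3, 18.4 and 17.6 CPM in aged EGCG, 15.2, 15.6 and 17.3 CPM in aged control, and 22.4, 25.1 and 25.7 CPM in young control libraries. All aged libraries lay below all young ones, and the log2 fold change of aged control against young control was -0.61 (SE 0.12, adjusted p = 1.38e-05).

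Atg7 had 18.0, 14.7 and 20.0 CPM in aged EGCG, 15.5, 17.7 and 12.8 CPM in aged control, and 10.5, 11.7 and 11.5 CPM in young control libraries. The aged libraries scattered but all exceeded the young ones (log2 fold change of aged control against young control 0.46, adjusted p = 0.00539, and 0.0594 without aged control library 2). Atg5, the substrate of the branch, had 12.7, 14.3 and 15.2 CPM in aged EGCG, 18.1, 13.3 and 10.3 CPM in aged control, and 11.6, 11.5 and 8.61 CPM in young control libraries. Aged control and young control overlapped for Atg5, which was called higher at an adjusted p of 0.029. That call ended without aged control library 1 (adjusted p = 0.392) or young control library 3 (0.188), under both scalings to library size and to lens fibre genes (log2 fold changes of 0.08 and 0.23), and in DESeq2 (adjusted p = 0.0864). Atg12 itself rose by 0.54 on the log2 scale (adjusted p = 1.36e-07).

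In the ATG8 branch, proteases of the ATG4 type trim the small proteins before ATG7 and ATG3 load them onto lipid. Atg3 had 128.4, 134.3 and 129.1 CPM in aged EGCG, 152.8, 159.6 and 148.4 CPM in aged control, and 109.9, 107.5 and 106.4 CPM in young control libraries. Its 3 groups were separate, and aged control exceeded young control 1.42-fold (log2 fold change 0.51, SE 0.06, adjusted p = 3.88e-11). Atg4d had 11.9, 12.1 and 13.2 CPM in aged EGCG, 9.35, 9.37 and 8.21 CPM in aged control, and 12.6, 16.3 and 16.6 CPM in young control libraries. Aged control libraries were the lowest, with a log2 fold change of -0.75 against young control (SE 0.15, adjusted p = 2.99e-05). Its relative Atg4b was not called in any comparison, with a mean of 37.2 CPM in aged EGCG, 36.6 CPM in aged control and 37.1 CPM in young control libraries.

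**Figure D3:**
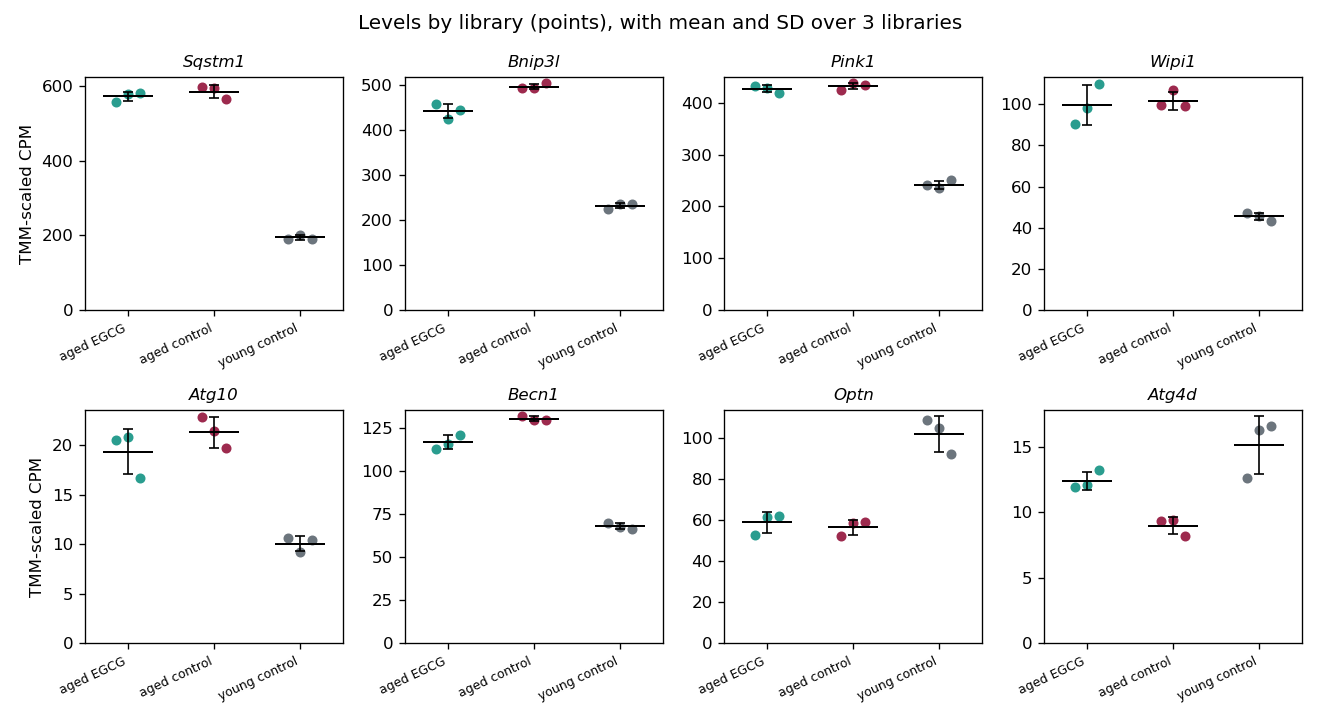
TMM-scaled CPM (y axis, from 0) of 8 members in each library (points), with the mean and SD over the 3 libraries of aged EGCG, aged control and young control. Sqstm1, Bnip3l, Pink1, Wipi1, Atg10 and Becn1 lie above the young libraries in all 6 aged ones, Optn lies below them, and Atg4d is lowest in aged control.

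The 5 genes of the ATG8 type did not move as a family. Gabarap had 277.4, 256.2 and 267.2 CPM in aged EGCG, 297.2, 272.8 and 281.1 CPM in aged control, and 141.9, 147.0 and 137.4 CPM in young control libraries. All aged libraries were far above all young ones, and aged control was 2-fold above young control (log2 fold change 0.997, SE 0.05, adjusted p = 4.72e-22, and 0.53 on the log2 scale once the trend of fold change with gene length was removed). Gabarapl1 fell by 0.20 on the log2 scale in aged control against young control (adjusted p = 0.000549). It had 274.8, 267.3 and 245.0 CPM in aged EGCG, 226.6, 240.1 and 236.0 CPM in aged control, and 270.0, 264.9 and 271.2 CPM in young control libraries, so that aged control was lowest and did not overlap either of the others. Gabarapl2 was not called with age (log2 fold change 0.17, adjusted p = 0.0827).

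Of the LC3 genes, Map1lc3b had 53.0, 52.3 and 55.1 CPM in aged EGCG, 57.1, 50.6 and 53.7 CPM in aged control, and 51.1, 53.5 and 57.1 CPM in young control libraries. The 3 groups overlapped, and the log2 fold change was -0.003 for aged control against young control (95% interval -0.16 to 0.15). It was called lower with age when libraries were scaled to their size only. Map1lc3a had 29.6, 32.6 and 28.6 CPM in aged EGCG, 19.6, 24.1 and 20.5 CPM in aged control, and 25.7, 32.2 and 29.6 CPM in young control libraries. Aged control libraries were lowest without overlap, with a log2 fold change of -0.45 against young control (SE 0.11, adjusted p = 0.000368).

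Ratios of FPKM within a library do not depend on any scaling between libraries. Gabarap over Gabarapl1 was 1.6, 1.51 and 1.72 in aged EGCG, 2.07, 1.8 and 1.88 in aged control, and 0.831, 0.877 and 0.801 in young control libraries. Per length, Gabarap was thus the more abundant of the pair in every aged library and Gabarapl1 in every young one. No group overlapped another. The lengths used were 1122 bases for Gabarap and 1773 bases for Gabarapl1. In CPM, which is not divided by length, Gabarapl1 exceeded Gabarap in aged EGCG library 2 (267.3 against 256.2 CPM). The trend of fold change with gene length was not removed from these ratios. Map1lc3a over Map1lc3b averaged 1.33 ± 0.125 in aged EGCG, 0.94 ± 0.159 in aged control and 1.27 ± 0.124 in young control libraries (SD, n = 3 each), with aged control below both other groups in every library. The 6 ratios computed were chosen after values were seen, and with 3 libraries against 3 an exact two-sided permutation test cannot go below p = 0.1, the value reached by both of these ratios in aged control against young control and in aged EGCG against aged control.

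**Figure D4:**
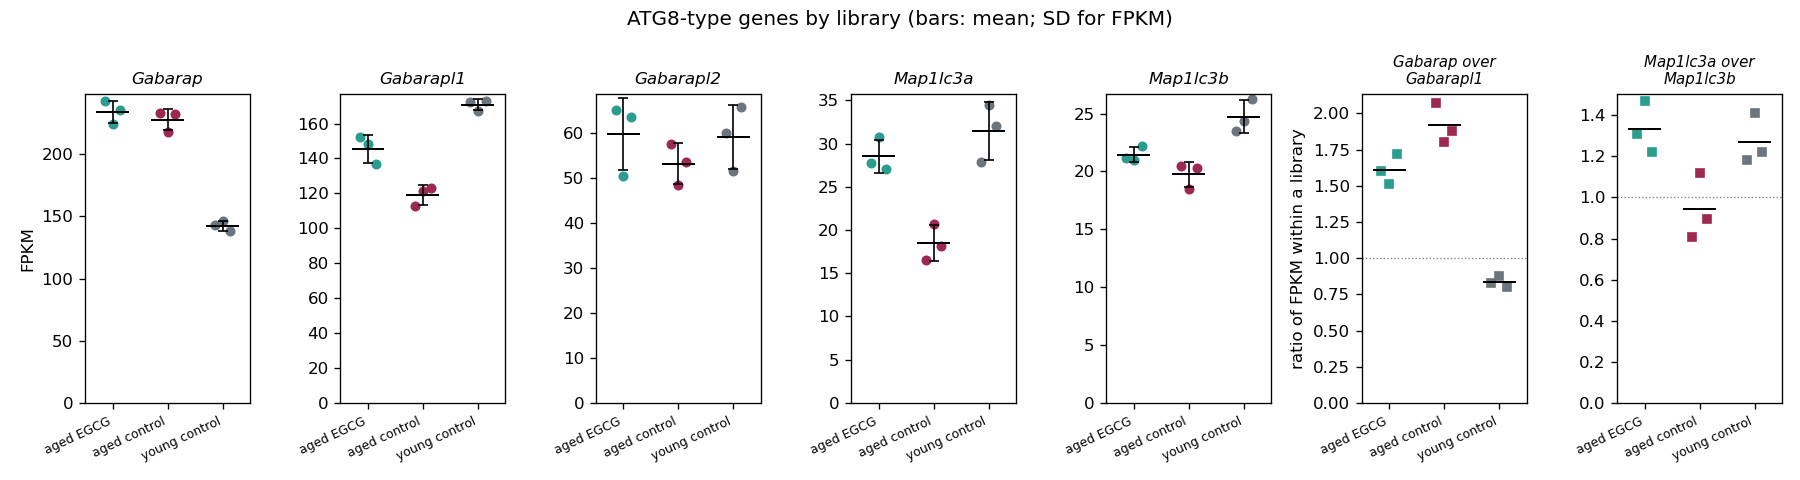
FPKM of the 5 genes of the ATG8 type in each library (circles, with mean and SD) and, in the last 2 panels, ratios of FPKM within a library (squares, with the mean). Y axes start at 0 and differ in range, and the dotted line marks a ratio of 1. FPKM carries no TMM factor, so the order of groups can differ from that in CPM. Gabarap averaged 234 FPKM in aged EGCG and 228 FPKM in aged control libraries, beside 267 and 284 CPM. Gabarap over Gabarapl1 is above 1 in the 6 aged libraries and below 1 in the 3 young ones.

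Among the cargo receptors, Sqstm1, which encodes p62 and links ubiquitinated cargo to ATG8 proteins, had 558.2, 579.4 and 581.2 CPM in aged EGCG, 596.8, 595.3 and 565.5 CPM in aged control, and 191.0, 201.6 and 191.2 CPM in young control libraries. Both aged groups stood near 3 times the young level and overlapped each other. Aged control against young control gave the largest change of any member, a log2 fold change of 1.59 (SE 0.05, adjusted p = 1.28e-31). Optn, which encodes optineurin, a receptor in mitophagy, had 53.0, 61.6 and 62.1 CPM in aged EGCG, 52.3, 58.5 and 59.0 CPM in aged control, and 109.0, 105.0 and 92.2 CPM in young control libraries. All aged libraries lay well below all young ones (log2 fold change of aged control against young control -0.85, SE 0.07, adjusted p = 3.76e-14). Tax1bp1, a further ubiquitin-binding receptor gene, fell by 0.22 on the log2 scale, and Nbr1, which resembles p62, was not called (-0.09, adjusted p = 0.149). The FPKM of Sqstm1 over that of Nbr1 averaged 3.17 ± 0.0405 in aged EGCG, 3.39 ± 0.197 in aged control and 1.06 ± 0.032 in young control libraries (SD, n = 3 each).

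All 3 genes of the mitophagy group were called higher with age, while Optn, placed among the cargo receptors, was called lower. Bnip3l, whose product NIX sits in the outer mitochondrial membrane and binds ATG8 proteins directly, had 456.6, 424.4 and 445.3 CPM in aged EGCG, 492.3, 493.4 and 503.2 CPM in aged control, and 224.6, 236.1 and 235.2 CPM in young control libraries. The 3 groups were separate, and aged control was 2.14-fold above young control (log2 fold change 1.10, SE 0.05, adjusted p = 2.78e-25). Pink1, which encodes the kinase that marks damaged mitochondria for removal, had 433.3, 429.2 and 419.6 CPM in aged EGCG, 426.0, 438.8 and 434.5 CPM in aged control, and 240.6, 235.0 and 250.8 CPM in young control libraries. The aged groups overlapped each other and stood above the young one (log2 fold change of aged control against young control 0.84, SE 0.05, adjusted p = 5.85e-21). Fundc1, a receptor gene linked to low oxygen, averaged 36.7 CPM in aged EGCG, 43.8 CPM in aged control and 29.7 CPM in young control libraries. It rose by 0.56 on the log2 scale (adjusted p = 2.99e-06). The Fundc1 call held with each library left out but not under all 18 other settings described below.

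Calls were repeated under 18 other settings, which include 3 other scalings, DESeq2 and the omission of each library in turn. In all of them 9 members stayed called higher with age, namely Becn1, Wipi1, Atg3, Atg10, Atg12, Gabarap, Sqstm1, Bnip3l and Pink1. The 8 that stayed lower were Ambra1, Atg9a, Atg4d, Atg16l1, Map1lc3a, Gabarapl1, Optn and Tax1bp1.

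The sequence before the start site is printed for 5 members: Sqstm1, Pink1 and Atg10, which are 3 of the members with large rises with age, Optn, the member with the largest fall, and Atg3, which holds the most copies of the lysosomal gene motif. RefSeq promoter windows were found for 30 of the 37 members in build GRCm38.p6. The bases shown lie before the outermost annotated start and run 5′ to 3′ on the strand of the gene. Those of Sqstm1, Pink1 and Atg3 end at that start, and those of Atg10 and Optn end short of it. The stretch CACGTG, the E-box core, is in capitals. The E-box core is the centre of the motif bound by TFEB and related factors of lysosomal genes. The windows are Sqstm1 (chr11:50210828-50211070, minus strand), Pink1 (chr4:138326308-138326546, minus strand), Atg10 (chr13:91223988-91224237, minus strand), Optn (chr2:5064118-5064367, minus strand) and Atg3 (chr16:45158579-45158784, plus strand).
Sqstm1: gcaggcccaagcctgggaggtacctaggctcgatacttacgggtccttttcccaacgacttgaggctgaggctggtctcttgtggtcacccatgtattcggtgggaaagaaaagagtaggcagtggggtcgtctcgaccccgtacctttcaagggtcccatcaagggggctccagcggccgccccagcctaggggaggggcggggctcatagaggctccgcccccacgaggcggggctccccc
Pink1: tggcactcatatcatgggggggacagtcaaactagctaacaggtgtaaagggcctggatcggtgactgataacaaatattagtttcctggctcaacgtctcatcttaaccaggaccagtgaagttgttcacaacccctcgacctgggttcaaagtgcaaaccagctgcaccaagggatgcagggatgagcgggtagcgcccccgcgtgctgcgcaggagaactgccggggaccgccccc
Atg10: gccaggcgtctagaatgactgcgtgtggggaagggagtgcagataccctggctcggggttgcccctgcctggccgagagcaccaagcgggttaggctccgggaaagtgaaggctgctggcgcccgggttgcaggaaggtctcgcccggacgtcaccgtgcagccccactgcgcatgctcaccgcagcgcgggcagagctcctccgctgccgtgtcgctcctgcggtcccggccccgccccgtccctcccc
Optn: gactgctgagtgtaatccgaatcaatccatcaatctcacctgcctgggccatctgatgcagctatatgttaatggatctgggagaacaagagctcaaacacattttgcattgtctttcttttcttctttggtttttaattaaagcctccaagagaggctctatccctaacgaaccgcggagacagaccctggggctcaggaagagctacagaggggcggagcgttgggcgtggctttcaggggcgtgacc
Atg3: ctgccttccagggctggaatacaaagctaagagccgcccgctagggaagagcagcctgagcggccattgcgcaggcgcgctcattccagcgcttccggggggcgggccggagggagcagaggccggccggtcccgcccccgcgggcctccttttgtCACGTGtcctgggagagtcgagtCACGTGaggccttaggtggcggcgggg

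Of these 5 windows, only that of Atg3 holds the E-box core, in 2 copies, at -94 and -71 from the RefSeq start. Over the 250 bases before the start, on both strands, CACGTG was found in 4 of 30 members (Rubcn, Atg3, Atg5 and Atg7), which is 13.3%, beside 9.77% of the 10886 tested genes with a window and 6.02% of all 32851 promoters of that length. Of these 4 genes, Atg3, Atg5 and Atg7 were called higher with age and Rubcn lower, beside 35.4% and 33.8% of all tested genes. The Atg5 and Atg7 calls ended with single libraries left out, as given above. The windows with the Rubcn and Atg7 matches lie inside these genes as annotated in GENCODE vM21. A link between motif and change was not tested. The longer TCACGTGA, which contains the E-box core, was found in Atg3 (3.33% of members, 1.68% of tested genes, 0.785% of all promoters). The core of the antioxidant response element, TGACNNNGC, was found in Ulk2, Atg13 and Tax1bp1, or 10% of members, beside 13.9% of tested genes and 10.2% of all promoters. The forkhead core TGTTTAC was found in 0 of 30 members (2.64% of tested genes, 3.17% of all promoters), and the GC box GGGCGG in 19 of 30, or 63.3%, beside 63.5% of tested genes and 32.7% of all promoters. A match is a stretch of letters and not a site shown to be bound.

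The second comparison, aged EGCG against aged control, asks what differed with EGCG in aged tissue. Changes among the 37 genes were few and small, none reaching 1.5-fold, where 9.47% of all genes were called higher and 2.27% lower with at least that fold. Map1lc3a, Atg4d and Gabarapl1 were called higher, and Ulk1, Becn1, Atg3 and Bnip3l were called lower. The other 30 members were not called. Of all 13711 genes, 24.1% were called (13.8% higher and 10.3% lower), so the 7 called members are near the background. With scaling to library size only, 9 members were called higher and 0 lower, beside 3086 and 611 of all 13711 genes. With scaling to lens fibre genes, 18 were called higher and 0 lower, beside 4349 and 445 of all genes. The median log2 fold change was 0.027 for the members and -0.004 for all tested genes. Libraries did not overlap for 4 members above and 8 below, beside 17.8% and 15.7% of all genes (33.5% together).

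Map1lc3a, an LC3 gene, was the member with the largest rise, 1.41-fold (log2 fold change 0.50, SE 0.11, adjusted p = 0.000424), with all 3 aged EGCG libraries above all aged control ones in the values given above. It kept its call under all 18 other settings, with log2 fold changes between 0.44 and 0.69. Atg4d, the ATG4-type protease gene, was 1.38-fold higher in aged EGCG libraries (log2 fold change 0.46, SE 0.16, adjusted p = 0.0253). Its call ended without aged EGCG library 3 (adjusted p = 0.0833) or aged control library 3 (0.085). Gabarapl1 was 1.12-fold higher (log2 fold change 0.16, SE 0.05, adjusted p = 0.0127). Its call ended without aged EGCG library 1 (adjusted p = 0.0897), aged EGCG library 2 (0.0608) or aged control library 1 (0.0529). These 3 genes were also called lower in aged control against young control, and both comparisons share the aged control libraries. The retinal and red blood cell markers were also lowest in aged control, and their part in these values was not tested.

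The 4 genes called lower were Ulk1 (1.24-fold, adjusted p = 0.0138), Atg3 (1.18-fold, 0.00104), Bnip3l (1.12-fold, 0.00492) and Becn1 (1.12-fold, 0.0334). On the TMM scale their libraries did not overlap, aged EGCG lying below aged control in the values above. With scaling to library size only, their log2 fold changes were -0.18 for Ulk1, -0.11 for Atg3, -0.04 for Bnip3l and -0.04 for Becn1, and none was called. With scaling to lens fibre genes they were -0.11, -0.04, 0.03 and 0.03, and again none was called. The lower level of these 4 genes thus depends on the scaling. On the TMM scale, 12 of the 21 lens fibre genes were themselves called lower with EGCG and 1 higher, beside 10.3% and 13.8% of all genes. Scaling to them moved the median change of all tested genes by 0.19. The Ulk1 call also ended without aged EGCG library 1 (adjusted p = 0.0732) or aged control library 1 (0.0559), and the Bnip3l call without aged EGCG library 2 (0.0555). The Becn1 call ended when any one of 7 libraries was left out, with adjusted p-values between 0.0505 (without young control library 1) and 0.123 (without aged EGCG library 1), the others being aged EGCG library 2 (0.0924), aged control libraries 1 (0.0752) and 2 (0.0646) and young control libraries 2 (0.0517) and 3 (0.0518). Fundc1 just missed the threshold (log2 fold change -0.26, adjusted p = 0.0519), and Tax1bp1 also did not reach it (0.14, adjusted p = 0.0813). Without aged EGCG library 1 both were called (adjusted p = 0.048 and 0.0201), as was Atg2b (0.0478), and Fundc1 also without aged EGCG library 3 (0.0405) or aged control library 2 (0.037).

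**Figure D5:**
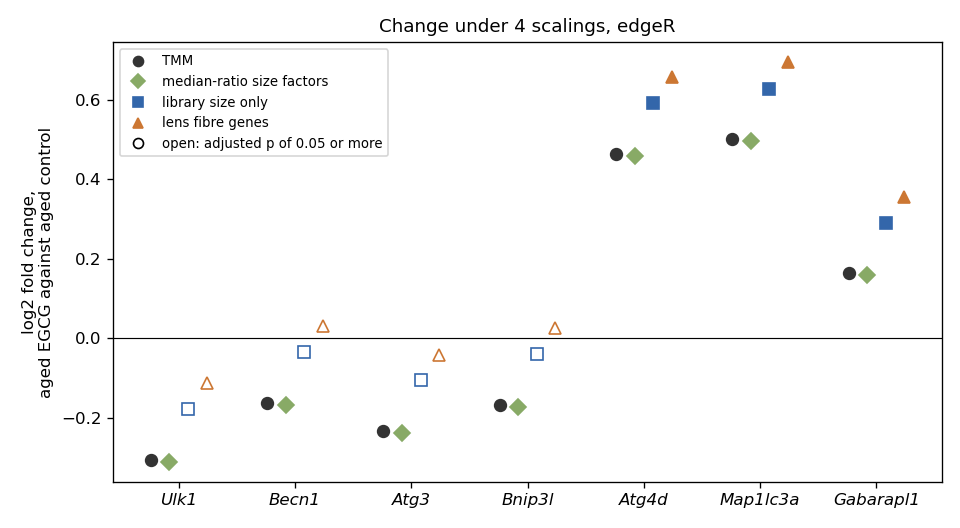
Log2 fold change (y axis) of aged EGCG against aged control in edgeR for the 7 members called in that comparison, under TMM, median-ratio, library-size and lens fibre scaling. Open symbols mark an adjusted p of 0.05 or more. The 3 genes on the right stay above 0 and called under each scaling, while the 4 on the left lie below 0 and called only under TMM and median-ratio scaling.

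Several genes with large changes between aged control and young control were not called between aged EGCG and aged control on the TMM scale. Sqstm1 had a log2 fold change of -0.03 in aged EGCG against aged control (95% interval -0.12 to 0.06, adjusted p = 0.668), Pink1 of -0.02 (-0.11 to 0.07, adjusted p = 0.818), Wipi1 of -0.03 (adjusted p = 0.785) and Optn of 0.06 (adjusted p = 0.646). With scaling to lens fibre genes, Sqstm1 and Pink1 were called higher, at 0.16 (adjusted p = 0.00473) and 0.17 (0.00306). Map1lc3b stood at -0.01 (95% interval -0.17 to 0.15, adjusted p = 0.957). Within libraries, Gabarap over Gabarapl1 and Ulk1 over Ulk2 were lower in every aged EGCG library than in any aged control one. The ratio of Ulk1 to Ulk2 in FPKM averaged 1.27 ± 0.102 in aged EGCG, 1.59 ± 0.073 in aged control and 1.9 ± 0.186 in young control libraries (SD, n = 3 each), with an exact permutation p of 0.1 in each pair of groups. Sqstm1 over Nbr1, Sqstm1 over Optn and Becn1 over Rubcn overlapped between aged EGCG and aged control.

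The third comparison, aged EGCG against young control, shares its libraries with the other comparisons and places the treated aged tissue beside the young one. There 17 members were called higher and 10 lower, and 10 were not called, beside 63.6% of all genes (32.3% higher and 31.4% lower). Scaling to library size only gave 11 higher and 15 lower, beside 3102 and 5569 of all 13711 genes. Sqstm1 was 2.94-fold, Wipi1 2.19-fold, Atg10 1.93-fold, Bnip3l 1.91-fold, Gabarap 1.88-fold, Pink1 1.76-fold, Becn1 1.72-fold and Atg7 1.57-fold higher than in young control libraries. These 8 were the members called higher at 1.5-fold or more, where 16.8% of all genes were so called. Optn was 1.73-fold lower (log2 fold change -0.79, adjusted p = 4.75e-13), the one member called lower at 1.5-fold or more, beside 22.5% of all genes. Libraries did not overlap for 15 members above and 9 below, beside 33.9% and 34.4% of all genes (68.3% together).

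For Map1lc3a, Gabarapl1 and Atg4d, no call was made in aged EGCG against young control. Map1lc3a had a log2 fold change of 0.05 (95% interval -0.16 to 0.27, adjusted p = 0.68) and Gabarapl1 of -0.03 (adjusted p = 0.564). Atg4d stood at -0.29 (adjusted p = 0.0859) and was called lower without young control library 1 (adjusted p = 0.0329). With scaling to library size only, Gabarapl1 and Atg4d were called lower than in young control libraries, so that the absence of a call for these 2 genes depends on the scaling. Map1lc3a turned to a lower call, at -0.34 (adjusted p = 0.0047), once the trend of fold change with gene length was removed. Ulk1 was lower in aged EGCG than in young control libraries (log2 fold change -0.30, SE 0.09, adjusted p = 0.00575, and 0.0806 without young control library 2). Rubcn fell by 0.54 on the log2 scale (adjusted p = 4.33e-06).

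Other genes of the pathway were counted from a list of 62, of which 58 were tested. In aged control against young control, 32 were called higher and 9 lower, with a median log2 fold change of 0.28, beside 35.4% of all genes called higher and 33.8% lower, to which the counts of its groups below also compare. Scaling to library size only gave 17 higher and 20 lower, beside 2939 and 6442 of all 13711 genes. Of the 10 tested genes for other selective receptors, 8 were higher, among them Tex264 (log2 fold change 0.89, adjusted p = 1.56e-15) and the glycogen receptor gene Stbd1 (1.09, adjusted p = 0.00664), and Wdfy3, which encodes the large scaffold ALFY, was lower (-1.33, adjusted p = 1.29e-22). Of the 16 further mitophagy genes, 10 were higher and 1 lower. Of the 13 for fusion with the lysosome, 7 were higher and 2 lower, with the small GTPase gene Rab7 having the smallest p (log2 fold change 0.71, adjusted p = 1.11e-16). Of 10 for phagophore and lipidation, 2 were higher and 3 lower. Of 9 transcription factors and regulators, 5 were higher and 2 lower, with Trp53inp2 among the lower ones at -1.21 (adjusted p = 1.04e-14).

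In aged EGCG against aged control, 5 of these 58 genes were called higher and 4 lower, beside 13.8% and 10.3% of all genes. With scaling to library size only, 21 were called higher and 0 lower, beside 3086 and 611 of all 13711 genes. Counts on the TMM scale moved to 8 higher and 2 lower without aged EGCG library 1. They moved to 3 and 1 without aged EGCG library 3, and to 3 and 2 without aged control library 2. The lower calls moved to 2 without aged EGCG library 2, young control library 1 or young control library 3. Vps18, a tethering subunit gene, rose by 0.52 on the log2 scale (adjusted p = 0.000775), with a mean of 22 CPM in aged EGCG, 15.4 CPM in aged control and 27.5 CPM in young control libraries. Tecpr1, which encodes a tethering protein of autophagosomes, rose by 0.38 (adjusted p = 0.00106), with 43.4 CPM in aged EGCG, 33.4 CPM in aged control and 64.6 CPM in young control libraries. Vps33a rose by 0.35 (adjusted p = 0.00972), and Sec62, a receptor gene of the endoplasmic reticulum, was at -0.17 (adjusted p = 0.00922). In aged EGCG against young control, 33 were higher and 10 lower, beside 32.3% and 31.4% of all genes, and the 4 with the smallest p were Wdfy3 at -1.11, Rab7 at 0.66, Tex264 at 0.88 and Fkbp8, a mitophagy receptor gene, at 0.62.

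Several values have a limit of annotation or counting. In GENCODE vM21, Becn1 shares 43.9% of its exonic bases with Cntd1 on the other strand, Gabarapl1 28.3% with 1700101I11Rik, Atg4d 19.3% with Kri1 and Sqstm1 17.3% with Mrnip, and Atg9a shares 31.8% with Gm29253 on its own strand. Reads of such pairs cannot be told apart if the counting ignored strand, and the sources used here do not give this. Cntd1 averaged 0.438 CPM in aged EGCG, 0.165 CPM in aged control and 0.664 CPM in young control libraries, far below Becn1, and Mrnip 12.2, 14.8 and 6.29 CPM in the same groups, far below Sqstm1. Kri1, at 15 CPM in aged EGCG, 16.9 CPM in aged control and 19.7 CPM in young control libraries, exceeded Atg4d in each group. Bnip3l has an annotated pseudogene copy, so its counts are uncertain in that respect. Fold changes fell with gene length, with a Spearman rho of -0.33 across all tested genes and -0.34 across the members for aged control against young control, where genes are not independent replicates. Members ranged from 980 to 15890 bases, with a median of 3525 bases (3722 bases over all tested genes).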

How the data were processed

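RNA sequencing of mouse anterior lens capsule gave 9 libraries, 3 per group as named in the labels, prepared, per the labels' protocols, with a SMARTER mRNA-Seq kit. The build was GRCm38 (mm10), per the submitters' processing notes. The sources used here name no aligner, counting tool or strand setting. The authors deposited raw read counts per gene and a table of FPKM. All 138164 FPKM entries with a count equalled the count divided by 1 length per gene and the library total, within 0.01%, and the 19579 others were 0. Libraries of a group correlated at r between 0.9931 and 0.9949 over genes on a log scale and differed by more than sampling noise, so none was treated as a copy of another.

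The main test was edgeR 4.0.16 (R 4.3.3), quasi-likelihood, on the deposited counts, with filterByExpr, TMM factors and all 9 libraries in 1 fit of group means, so that the groups shared 1 estimate of the spread (biological coefficient of variation 7.89%). Tests are two-sided, and intervals reflect counting noise and the scatter of libraries. The procedure was tested on simulated data for aged control against young control. It recovered, with the right sign, 14 of 50 genes changed 1.25-fold and 33 of 49 changed 1.5-fold. At 2-fold it recovered 46 of 49 and at 3-fold 46 of 50, with 5 false calls among 13511 genes. The simulation changed far fewer genes than were called in the data, and the adjusted p depends on that number. These rates therefore do not carry over to the real comparisons. How many changes of the size seen with EGCG among the members were missed was not measured. Alternatives were library-size scaling, DESeq2 size factors, scaling to 21 lens fibre genes, DESeq2 1.42.0, limma 3.58.1 on log2(FPKM + 1), no filter, removal of the trend with gene length, the 2 compared groups alone, a replicate block, and each library left out.

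The members, the other gene lists and the tests were chosen with earlier results of these data known. Values in every library are given for members called with at least a 1.5-fold change in any comparison and for Ulk1, Becn1, Atg5, Map1lc3a, Map1lc3b, Gabarap, Sqstm1, Bnip3l and Pink1. Those of Atg3 and Gabarapl1 were added after their values were seen. Of the other pathway genes, the 4 with the smallest p per comparison and any with a 2-fold change are named. Promoter sequences are from RefSeq, GRCm38.p6.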

Additional observations from a re-analysis of the deposited data

How the results depend on the processing

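Under DESeq2, DESeq2 size factors in edgeR, no filter and the fit of the 2 compared groups, no member changed direction where it was called, and the number of members called higher and lower stayed within 1.5 times the main count. Sign changes of genes called under neither setting are not counted here. In aged EGCG against aged control, 3 higher and 4 lower became 9 and 0 with library-size scaling, 18 and 0 with scaling to lens fibre genes, and 6 and 0 on log2(FPKM + 1). Among all 13711 genes, 1894 and 1406 became 3086 and 611, 4349 and 445, and 2401 and 507. In aged control against young control, 16 higher and 13 lower became 10 and 20 with library-size scaling and 9 and 19 on log2(FPKM + 1). Among all genes, 4847 and 4635 became 2939 and 6442, and 2947 and 6424. In aged EGCG against young control, 17 higher and 10 lower became 11 and 15 under both these settings. Among all genes, 4424 and 4301 became 3102 and 5569, and 3131 and 5622. The median change of all tested genes moved with library-size scaling by 0.13, -0.32 and -0.19 in these 3 comparisons, and with lens fibre scaling by 0.19, -0.17 and 0.02. With age, library-size scaling turned Ulk1 (-0.31), Ulk2 (-0.05), Atg13 (-0.035) and Atg101 (-0.006), log2(FPKM + 1) turned Ulk1 (-0.27), Ulk2 (-0.041) and Atg13 (-0.034), and removing the length trend turned Pik3c3 (0.52) and Gabarapl2 (-0.32). With EGCG in aged tissue, lens fibre scaling turned Becn1 (0.031), Sqstm1 (0.16), Bnip3l (0.026) and Pink1 (0.17). In aged EGCG against young control, library-size scaling and log2(FPKM + 1) both turned Atg13 (-0.025), and removing the length trend turned Rb1cc1 (0.013), Pik3c3 (0.54), Atg2b (0.11), Map1lc3a (-0.34) and Gabarapl2 (-0.19). Beyond the scaling itself, the cause was not tested.

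With each library left out in turn, members called higher and lower ranged over 2 to 4 and 2 to 5 in aged EGCG against aged control, 15 to 16 and 11 to 13 in aged control against young control, and 14 to 17 and 8 to 11 in aged EGCG against young control. The lowest count of lower calls with EGCG, 2, came without aged EGCG library 2 and without aged control library 1. In aged control against young control, Gabarapl2 was called without aged control library 2 (adjusted p = 0.0323) or young control library 3 (0.0245). In aged EGCG against young control, calls ended for Atg13 without aged EGCG library 2 (0.119) or young control library 1 (0.087), 2 (0.0645) or 3 (0.0603), and for Atg2a without aged EGCG library 3 (0.178) or young control library 2 (0.05) or 3 (0.198). They also ended for Atg2b without aged EGCG library 1 (0.0545), for Atg5 without aged EGCG library 2 (0.0586) or 3 (0.0894) or young control library 3 (0.175), for Fundc1 without young control library 3 (0.0891), and for Gabarapl2 without aged EGCG library 1 (0.197) or 3 (0.138) or young control library 1 (0.0647) or 2 (0.28). Same-numbered libraries of different groups did not deviate together (correlations between -0.02 and 0.03 over genes), so the numbers were not taken as pairs. With the replicate block, 3 members were called higher and 5 lower in aged EGCG against aged control, 17 and 13 in aged control against young control, and 17 and 10 in aged EGCG against young control.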

Other observations

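Genes of transcription factors that act on lysosomal and autophagy genes, named here after their values were seen, were among the pathway genes called higher in aged control against young control. Tfeb, which encodes a main activator of lysosomal genes, averaged 15.9 CPM in aged EGCG, 18.5 CPM in aged control and 10.7 CPM in young control libraries, with a log2 fold change of 0.80 with age (edgeR, adjusted p = 3.15e-06). Its relatives Tfe3 and Mitf had log2 fold changes of 0.49 and 0.60. Of the 9 tested transcription factors and regulators, 5 were called higher and 2 lower, beside 35.4% and 33.8% of all genes. Tfec, also listed, had 4, 3 and 2 counts in young control libraries and 0 in each aged one, and was not tested. These values are on the TMM scale, and library-size scaling moved the median change of all tested genes by -0.32. Bnip3, the paralogue of Bnip3l, averaged 93.8 CPM in aged EGCG, 107 CPM in aged control and 60.6 CPM in young control libraries. It was called higher with age (log2 fold change 0.82, edgeR, adjusted p = 4.17e-14) and lower with EGCG in aged tissue (-0.19, edgeR, adjusted p = 0.0414) on the TMM scale. The call with EGCG ended with scaling to library size only. Under that scaling, 0 of the 58 other pathway genes and 611 of all 13711 genes were called lower.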
